A study of Triticum aestivum with 6 samples.

Results

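Among the transcripts that differed between week-old wheat seedlings grown from sonicated and from untreated seed, 9 genes were described as WRKY, NAC or MYB transcription factors. They were 2 WRKY, 4 NAC and 3 MYB genes out of 861 listed genes. Members were chosen by the words WRKY, NAC, MYB or Myb in the description of the gene that the probe itself names. The authors' deposited table lists only genes with an adjusted p-value (false discovery rate, FDR) under 0.05, so the members were also selected on the measured difference. Fold changes, p-values and signs of the members are therefore given as a description, with no test of their own. The 9 descriptions all named a transcription factor family, and no description with these words belonged to a probe of another gene.

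Messenger RNA was sequenced from leaf of Triticum aestivum, breeding line SE15, in 3 control samples and 3 samples from ultrasound-treated seed. Treated seeds received 30 kHz at 70 W for 5 minutes, 4 cm from the ultrasound head, and control seeds received none. Both groups started from 100 seeds of 13.6% water content, germinated in the dark at 20 °C, and were sampled on day 7. SE15 is a single breeding line. The design text calls the samples of a group biologically independent, but it does not say how many seedlings a sample pooled or whether samples came from separate dishes.

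Values of single libraries were not analysed here, because both deposited tables hold only statistics of one comparison between groups named K1 and US1. The headers do not say which of the 3 samples per group entered either table, so the folds and p-values below need not rest on all 6. Expression levels, sequencing depth and the spread between replicates of each gene are therefore unknown, and overlap between the groups cannot be shown. The orientation of the ratio is not stated in the headers either. The sign is kept as deposited, as a positive and a negative side. The second table, which scores the difference by a Z-score, runs the other way: all 18 genes found in both tables had opposite signs in them. In bulk tissue, a change in the share of expressing cells and a change in RNA per cell cannot be told apart. In the first table all 50 listed leaf markers (antenna, small chain of Rubisco, photosystems) lay on the positive side, and in the second all 26 had a negative Z-score. The first table listed no match to the seed-marker keywords. Its only root-marker keyword match was a metal-nicotianamine transporter at 2.77 on the positive side. The description of that transporter names iron and manganese transport to the endosperm, so the match is not read as a sign of root. The part of tissue makeup in the results was not tested.

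WRKY, NAC and MYB proteins are large plant families of DNA-binding regulators. WRKY factors bind W-box elements and are best known for controlling defence and stress genes, often downstream of mitogen-activated protein (MAP) kinases. NAC factors share an N-terminal DNA-binding domain and act in organ boundaries, stress, senescence and secondary walls. MYB factors carry helix-turn-helix repeats and are known for controlling phenylpropanoid genes, cell identity and the clock.

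In the authors' deposited table, the negative side held 6 members and the positive side 3. Members could come only from genes with a description of their own, of which 70.3% lay on the positive side. The split is not read as a result about these families. The members are few, and NAC transcription factors 6A, 6B and 6D are named as copies of the same gene. The FDR values imply 76618 tested features, of which 1.12% were listed, 0.548% on the negative and 0.576% on the positive side. How many WRKY, NAC and MYB genes were tested is unknown, so no share of a family can be set against these percentages. The negative members were both WRKY genes, NAC transcription factors 6A, 6B and 6D, and MYB transcription factor 78. The positive members were NAC domain-containing protein 18, a Myb transcription factor and a MYB-related protein. The median log2 fold change was -1.98 over the negative members (3.94-fold) and 1.23 over the positive members (2.34-fold). Over all listed genes the medians were -1.71 on the negative and 1.90 on the positive side.

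**Figure D1:**
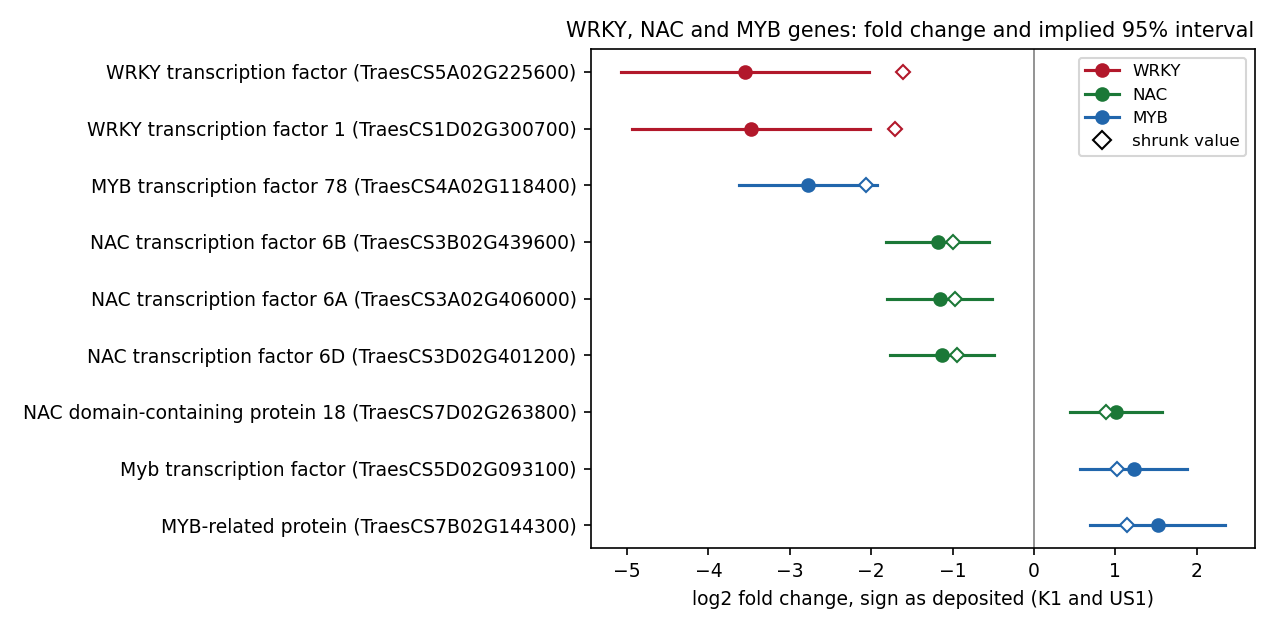
Log2 fold change of the 9 members (filled circles, sign as deposited) with the 95% interval implied by the p-value (lines) and the authors' shrunk value (open diamonds), coloured by family. The WRKY genes and MYB transcription factor 78 lie between -2.77 and -3.55, the NAC 6 genes between -1.13 and -1.18, and the 3 positive genes between 1.01 and 1.52.

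Both WRKY genes lay far on the negative side, at nearly the same fold. WRKY transcription factor 1, TraesCS1D02G300700, is on chromosome 1D from 398851878 to 398853228 on the minus strand. Its log2 fold change in the authors' deposited table was -3.48, an 11.1-fold difference. The standard error (SE) implied by that value and its p-value was 0.74, which gives a 95% interval from -4.94 to -2.02. Because all listed genes passed the FDR threshold, such an interval excludes 0 for each of them by selection. Its DESeq2 p-value was 2.94e-06 and its DESeq2 adjusted p was 0.00123.

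The other WRKY gene, TraesCS5A02G225600, is on chromosome 5A from 441193880 to 441195385 on the plus strand. Its description was carried over from a rice gene annotated as a transcriptional repressor in pathogen defence. The deposited log2 fold change was -3.55, or 11.7-fold, with an implied SE of 0.78 and an interval from -5.07 to -2.02. The DESeq2 p-value was 5.02e-06 and the adjusted p was 0.00179. The 2 genes differed by far less than either SE, although they lie on different chromosome groups.

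The WRKY genes were the least precise members. Shrinkage pulls uncertain log2 fold changes towards 0. It left 49.2% of the unshrunk log2 fold change of the 1D gene and 45.3% of that of the 5A gene. Their shrunk values of -1.71 and -1.61 lie outside the implied 95% intervals of the unshrunk folds. By shrunk size they ranked 44th and 64th among the 420 negative genes of the authors' deposited table. By unshrunk size they ranked 52nd and 50th.

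The NAC genes split by description. NAC transcription factors 6A, 6B and 6D carry the names of the A, B and D copies of one gene, and lie on chromosomes 3A, 3B and 3D. NAC6 genes of wheat have been studied for their part in the response to powdery mildew. All 3 lay on the negative side with nearly equal folds. TraesCS3A02G406000 (3A, 650056057 to 650058213, plus strand) had a deposited log2 fold change of -1.16, an implied SE of 0.33 and an adjusted DESeq2 p of 0.0449. TraesCS3B02G439600 (3B, 678548127 to 678550377, plus strand) had -1.18, an SE of 0.32 and an adjusted DESeq2 p of 0.0315. TraesCS3D02G401200 (3D, 515776261 to 515778438, plus strand) had -1.13, an SE of 0.33 and an adjusted DESeq2 p of 0.0492.

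These folds correspond to ratios of 2.23, 2.27 and 2.18. The widest gap among the 3 copies, that of 6B minus 6D, was -0.06 on the log2 scale. If their errors were independent, the SE of that gap would be 0.46. The copies come from the same libraries, and reads may be shared between near-identical subgenome copies. The sources used here do not say how such reads were counted, so the 3 values are not 3 independent measurements. The probe of 6D had the highest FDR of any member, close to the highest listed value of 0.0499, and genes just outside the threshold were not analysed here.

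NAC domain-containing protein 18, TraesCS7D02G263800, is on chromosome 7D from 244465752 to 244469758 on the plus strand. It was the only NAC member on the positive side, at 1.01 in the authors' deposited table, a 2.02-fold difference. It was also the most precise member, with an implied SE of 0.29 and an interval from 0.45 to 1.58. A fold this small can pass the FDR threshold only with a small SE, so this precision follows from the selection. Its DESeq2 p-value was 4.48e-04 and the adjusted p was 0.0447. The fold ranked 440th of 441 on the positive side, and only 15 listed genes on either side had a smaller absolute fold.

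Of all members, MYB transcription factor 78 had the lowest FDR. The gene, TraesCS4A02G118400, is on chromosome 4A from 145344649 to 145350033 on the minus strand. Its deposited log2 fold change was -2.77 (6.84-fold), with an implied SE of 0.43 and an interval from -3.62 to -1.93. The DESeq2 p-value was 1.34e-10 and the adjusted p was 3.21e-07, which placed it 32nd of the 861 genes by FDR. Shrinkage left 74.4% of its log2 fold change, a value of -2.07.

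Among the 69 described genes on the negative side, MYB transcription factor 78 ranked 1st by FDR and 1st by shrunk fold, but 19th by unshrunk fold. That ranking was noticed after the values were seen. Over all 420 negative genes, most of them without a description, it ranked 11th by FDR and 14th by shrunk fold. The order of the members therefore depends on the scale. Both WRKY genes had larger unshrunk folds than MYB transcription factor 78 and smaller shrunk folds, and the 3 unshrunk intervals overlap.

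**Figure D2:**
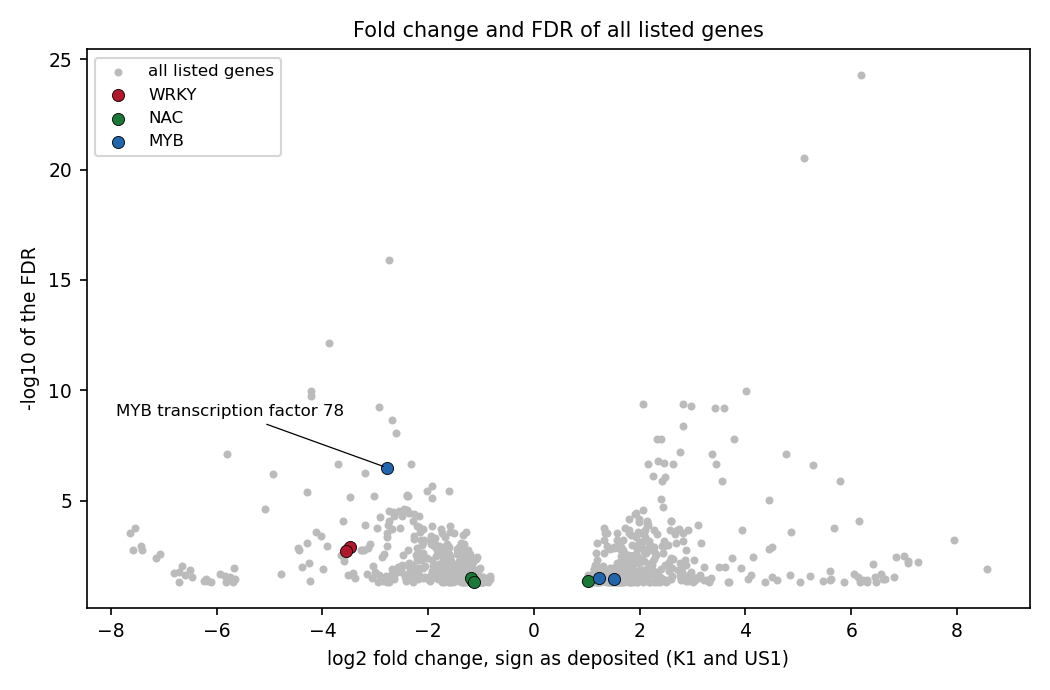
Log2 fold change (horizontal axis, sign as deposited) against -log10 of the FDR (vertical axis) for the 861 listed genes (grey) and the 9 members (coloured by family). MYB transcription factor 78 stands at -2.77 with an FDR of 3.21e-07, the WRKY genes lie close together at -3.48 and -3.55, and the other 6 members lie near the FDR threshold.

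The other MYB genes lay on the positive side with moderate folds. The Myb transcription factor TraesCS5D02G093100 is on chromosome 5D from 101757734 to 101761149 on the minus strand. It had a log2 fold change of 1.23 (2.34-fold) in the authors' deposited table, with an implied SE of 0.34, an interval from 0.57 to 1.89 and a DESeq2 adjusted p of 0.0303. The MYB-related protein TraesCS7B02G144300 is on chromosome 7B from 186274352 to 186277713 on the plus strand. It had a deposited log2 fold change of 1.52 (2.87-fold), with an SE of 0.42, an interval from 0.70 to 2.34 and a DESeq2 adjusted p of 0.0344. Their intervals overlap each other and that of NAC domain-containing protein 18. MYB-related proteins of plants commonly carry a single MYB repeat, but the description does not say which type this gene encodes.

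Stricter rules kept only some of the members in the authors' deposited table. At an FDR under 0.01, 3 members remained, all negative: both WRKY genes and MYB transcription factor 78. The same 3 were the only members whose unshrunk log2 fold change was 2 or more in size. The background for these rules was 0.251% and 0.211% of tested features on the negative side, and 0.221% and 0.252% on the positive side, where no member passed. Requiring a shrunk value of 1 or more in size kept those 3 and the 2 positive MYB genes, while the 4 NAC genes lay between 0.88 and 0.99 in absolute size. The background for the shrunk rule was 0.475% negative and 0.530% positive. All these backgrounds include features without a description, which could not be members.

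**Figure D3:**
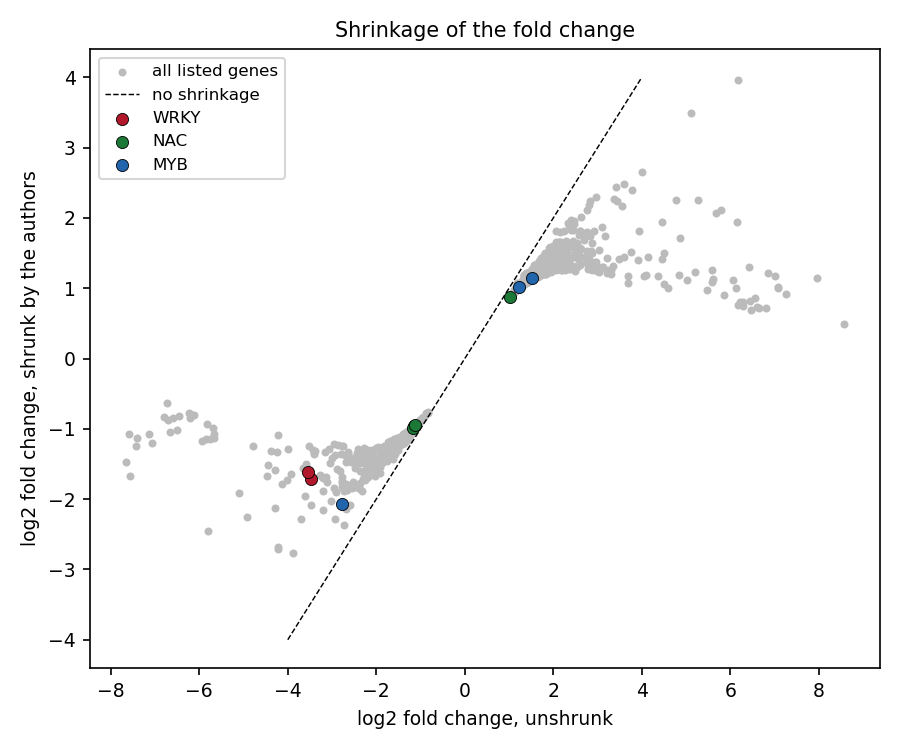
Unshrunk log2 fold change (horizontal axis) against the authors' shrunk value (vertical axis) for the 861 listed genes (grey) and the 9 members (coloured by family), with a dashed line where both are equal. The NAC genes and the positive MYB genes kept 75.6% to 86.8% of their log2 fold change and lie near the line. The WRKY genes kept 49.2% and 45.3%.

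Across all listed genes the authors' shrinkage kept a median of 74.6% of the log2 fold change, against 83.0% over the members. The implied SE had a median of 0.34 over the members, with a range from 0.29 to 0.78. Its median over all listed genes was 0.43 and its range was 0.22 to 2.13. No member belonged to the genes with folds above 5 on the log2 scale and SEs above 1 that populate the edges of the table.

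The members lay on 9 different chromosomes. Subgenome A held 3 of them, subgenome B held 2 and subgenome D held 4. Only the NAC 6 genes were listed with a copy by name on each subgenome. For the WRKY genes, the MYB genes and NAC domain-containing protein 18, copies on the other subgenomes could not be identified from the descriptions. No probe of a member overlapped another listed probe, so no member shared its locus with a listed antisense gene. None had another listed gene within 10 gene numbers on its chromosome.

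Within 1 Mb, NAC transcription factor 6B was the only member with a listed neighbour. That neighbour, TraesCS3B02G438400, has no description and lies 0.93 Mb away, at a deposited log2 fold change of -1.35. The nearest listed gene to NAC transcription factor 6D, TraesCS3D02G399100, lies 1.82 Mb away at -1.16, also without a description. The gene nearest to NAC transcription factor 6A, TraesCS3A02G408900, lies 3.47 Mb away on the positive side, at 1.85. The other members had their nearest listed gene between 2.64 and 33.1 Mb away.

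The authors' second deposited table, a selection of 52 genes by a Z-score, held 0 of the 9 members and no description of a WRKY, NAC or MYB gene. Its FDR values imply 120099 tested features, of which 0.0433% were listed. Absence from so short a list does not show that a member was unchanged by that test.

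Keywords for other transcription factor families can match only described genes, of which 70.3% lay on the positive side. They matched 9 genes, 8 positive and 1 negative, but 1 match came through the letters of the word superfamily. That leaves 8 factors, 7 positive and 1 negative, with a median log2 fold change of 1.69. The keywords missed 2 negative GRAS-type genes that the hormone list holds, and with them the split is 7 positive and 3 negative. Against the share of described genes, neither split is read as a result about these families. Lowest in FDR on the positive side were WXPL1B, TraesCS5B02G193200, at 1.38 (SE 0.27, DESeq2 adjusted p = 2.98e-04) and a GATA factor, TraesCS4D02G362800, at 2.09 (SE 0.49, DESeq2 adjusted p = 0.00529). GATA factors of plants are known for roles in greening and nitrogen responses. The negative one was a C2H2 zinc finger gene, TraesCS5A02G477400, at -1.65 (SE 0.37, DESeq2 adjusted p = 0.00289). One of the 7, TraesCS5A02G079100 at 1.67 (SE 0.41), is described as transcription factor AS1 and falls outside the keywords, although AS1 of Arabidopsis is an R2R3 MYB protein of leaf development. It was singled out after its values were seen. Counting it with the MYB genes would make 3 positive and 1 negative.

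Genes of pathways that these families are known to act in were few. The pathway lists also match only described genes, of which 70.3% lay on the positive side. Their small splits are not read as results about these pathways. The only MAP kinase, TraesCS7A02G422500, lay on the negative side, at -7.42 with an SE of 1.62 and a shrunk value of -1.13. Of the defence list, 2 of 2 genes were negative, and both were MLO-like genes, whose barley counterpart is a susceptibility factor for powdery mildew. TraesCS5A02G489900 had a deposited log2 fold change of -2.31 (SE 0.60, shrunk -1.37) and TraesCS2B02G097800 had -6.60 (SE 1.74, shrunk -0.84). No gene of the list for pathogenesis-related proteins, chitinases, thaumatins or defensins was listed.

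Phenylpropanoid genes, known targets of MYB factors, numbered 2 positive and 1 negative in the authors' deposited table. The positive ones were dirigent protein genes, which guide the coupling of lignan precursors, TraesCS2A02G034400 at 2.08 (SE 0.43) and TraesCS5B02G172000 at 1.67 (SE 0.43). The negative one was phenylalanine ammonia-lyase TraesCS1B02G048100, the entry enzyme of the pathway, at -7.14 (SE 1.64, shrunk -1.07).

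Hormone keywords matched 4 positive and 2 negative genes of the first table. They missed a gibberellin 2-oxidase by its description, GA2ox-D10 (TraesCS1D02G127000), at -2.18 on the negative side, which was found after its value was seen. They also matched 2 lipoxygenases of the second table, both with negative Z-scores. An allene oxide cyclase, TraesCS6D02G314300, and a lipoxygenase, TraesCS5B02G382300, which act in jasmonate synthesis, had deposited log2 fold changes of 1.62 (SE 0.34) and 1.82 (SE 0.41). The negative pair, TraesCS2A02G214400 at -1.28 (SE 0.34) and TraesCS2D02G220200 at -1.19 (SE 0.32), were described as chitin-inducible gibberellin-responsive proteins, which in rice belong to the GRAS family of regulators. Cell wall genes were even, at 3 positive and 3 negative. The negative ones included xyloglucan endotransglucosylases, which remodel the wall, TraesCS4A02G172600 at -1.38 (SE 0.29) and TraesCS7A02G426100 at -1.28 (SE 0.30). Hydroxyproline-rich glycoprotein TraesCS1D02G422700 at 1.62 (SE 0.38) and pectin acetylesterase TraesCS3A02G533600 at 1.34 (SE 0.36) were on the positive side. With 629 of the 861 genes lacking a description of their own, these counts do not cover every listed member of a family or pathway.

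**Figure D4:**
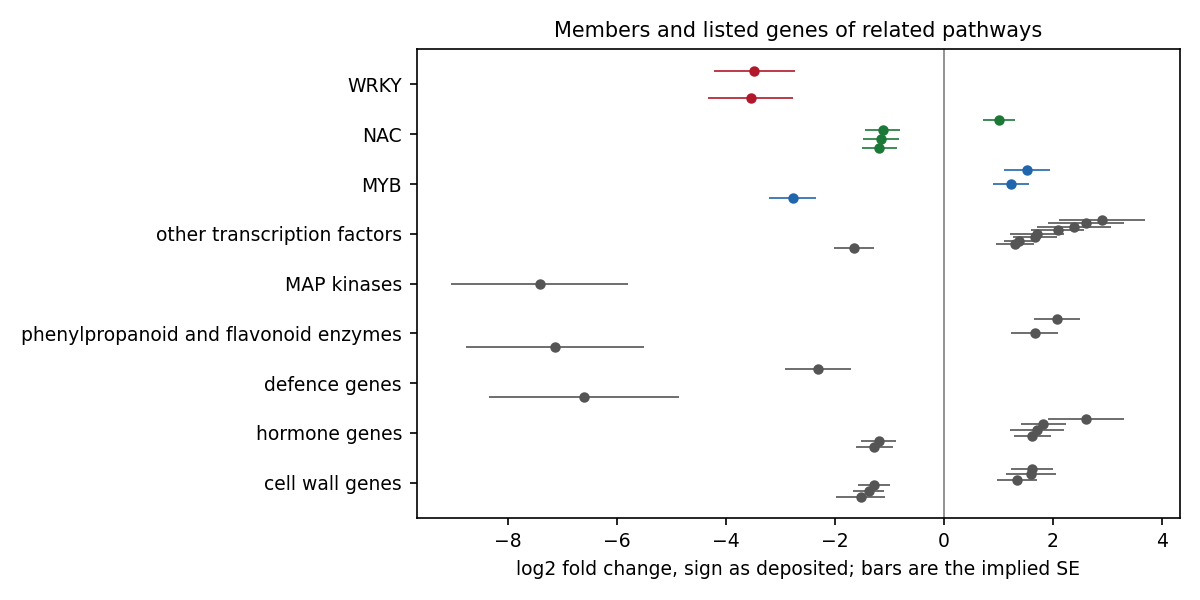
Log2 fold change (horizontal axis, sign as deposited) of each member by family (coloured) and of each listed gene of 6 related keyword lists (grey), with the implied SE as bars. Both WRKY genes, the MAP kinase and both MLO-like genes lie on the negative side. That side holds 420 of the 861 listed genes and 69 of the 232 described genes. Whether these genes are linked was not tested. Of the 9 matches to other transcription factors, 8 lie on the positive side. Among those 8, 1 matched only through the letters of the word superfamily.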

How the data were processed

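The data were 2 tables of the authors' own comparison. Per the file headers, the first holds the authors' DESeq2 statistics (p-value, FDR, and log2 fold changes before and after shrinkage). The second holds, as deposited by the authors, a p-value, an FDR and a score of the difference (Z-score), whose test is not named. Per the submitters' processing notes, the authors used STAR 2.7.10a, FastQC 0.11.9, Trim Galore 0.6.7 and, with no version, DESeq2. Genome build, counting and use of strand: not given in the sources used here. Positions are as deposited. Groups come from the sample titles. No test across libraries was possible.

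From the deposited values, with Python 3.11.15, NumPy 2.4.6, pandas 2.3.3 and SciPy 1.17.1, an SE was computed by dividing the absolute log2 fold change by the normal quantile of its p-value, taken as two-sided from a Wald test. The number of tests was taken as the commonest value of FDR times rank over p, shared by 336 probes. The planned median over probes gave 76293. The FDR of the last probe implies about 6 passing probes beyond those listed, and tied FDR values can also lower the median. The reason for the difference was not tested. The SE and the number of tests were also recovered from simulated data. Those data were built with the same formulas on a complete list, so the recovery checks the code only. It cannot test the Wald assumption or the effect of missing probes.

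Members and keyword lists were chosen with earlier results of these data known. All members are named, and up to 2 genes per list and side with the lowest FDR. A RefSeq gene table matched 0 of the 9 member identifiers, so no sequences are shown. Alternatives covered the FDR, minimum folds, the keyword match and how copies were counted.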

Additional observations from a re-analysis of the deposited data

How the results depend on the processing

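The split of members was 6 negative and 3 positive, and it is not read as a result about these families. Admitting probes annotated with another gene, keywords as separate words and 1 vote per description selected the same 9 genes, since no such probe matched and all descriptions differ, so they say nothing on stability. The split became 3 and 0 at an FDR under 0.01 and again when the log2 fold change had to be 2 or more in size, and 3 and 2 when the shrunk value had to be 1 or more. With 1 vote for NAC 6A, 6B and 6D together, chosen after seeing the data, it was 4 and 3. That choice moved the median log2 fold change of the negative members from -1.98 to -3.13 and that of the NAC genes from -1.14 to -0.071. Shrinkage moved the WRKY median from -3.51 to -1.66. By construction, these shifts follow from fewer values and from the pull towards 0. The other medians kept their direction. SEs recomputed from the shrinkage ratio were 0.997 to 1.04 times the implied ones. The scale of the recomputed SEs was set from the implied ones, so only the spread of these ratios is informative. The last probe alone implied 76088 tests. No paired analysis was possible because the tables hold no values per library, and leaving out replicates was not run for the same reason. Depth is unknown, so its limit on the precision cannot be given.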
